A study of Mus musculus with 5 samples.

Results

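The TNF receptor family was examined in mouse mammary epithelial cells in which Mef2d, the gene of a MADS-box transcription factor, had been targeted with CRISPR-Cas9. A set of 7 receptor genes was considered: Tnfrsf11b, Tnfrsf1a, Tnfrsf1b, Tnfrsf12a, Tnfrsf19, Tnfrsf21 and Ltbr. Tnfrsf11b, which encodes osteoprotegerin, was selected on its own fall between the groups compared here, so its values are given as a description with no test. The others entered as receptors of the same family. Of the 7 genes, 6 were among the 12934 genes listed in the deposited counts and all 6 passed the expression filter that left 12483 genes for testing. Tnfrsf19 was not listed, so its RNA was not analysed here, and only its promoter sequence was examined.

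EpH4 cells are an established epithelial line of the mouse mammary gland (BALB/c strain) that became immortal in culture without an introduced oncogene. All 5 libraries came from EpH4 cells infected with a Cas9 lentivirus and selected in blasticidin, then infected with an sgRNA virus and selected in puromycin, so the controls carried Cas9 as well. The sgControl group (3 libraries) carried a control sgRNA and the sgMef2d group (2 libraries) an sgRNA against Mef2d. The sources used here do not say which of the study's pair of Mef2d sgRNAs each library carried, nor whether libraries of a group came from separate cultures, so p-values measure the spread between these libraries only.

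Receptors of the TNF family are built from cysteine-rich repeats that bind trimeric ligands outside the cell. Some, such as TNFR1 and Fas, carry a death domain that can assemble caspase-8 complexes, and others recruit TRAF adaptors and feed the NF-κB and kinase pathways. Osteoprotegerin is a secreted decoy that lacks a membrane anchor. It binds RANKL, and so limits osteoclast formation, and it also binds TRAIL. RANKL and its receptor RANK are known in the mammary gland for their part in alveolar development.

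Library totals ranged from 13601145 to 20498563 counts, and 3 counts, taken as the limit for a gene to be told from 0, corresponded to between 0.146 and 0.220 CPM (counts scaled by the TMM-adjusted library total). Mef2d RNA itself was counted at 64.3, 76.9 and 71.5 CPM in sgControl and 64.2 and 65.8 CPM in sgMef2d (log2 fold change -0.12, adjusted p = 0.400, edgeR). Of the alternatives, it passed the threshold only without sgControl replicate 1 (log2 fold change -0.19, adjusted p = 0.00549, highest adjusted p 0.770). Gene counts do not show an edited sequence or the protein. Between libraries, a chi-square per degree of freedom over genes, which is 1 for counting error alone, was 1.98 for sgControl replicates 2 and 3 and 2.02 for the sgMef2d pair. Pairs of sgControl replicate 1 with the other sgControl libraries reached 10.3 and 13.3, about as far apart as libraries of different groups (10.6 to 12.7). This library stood apart, and calls of receptor and ligand genes that change when it is left out are given both ways, with the signalling genes as a count. The marker calls, ratios and counts of groups that do not overlap use all 5 libraries only. Of 10 luminal epithelial markers, 9 were listed, with a summed level of 4290 to 4470 CPM in sgControl and 4070 to 4240 CPM in sgMef2d. Endothelial markers were not listed (0 of 6), and the 3 of 8 immune markers listed summed to at most 5.12 CPM. The 7 of 10 fibroblast markers listed, of which Postn and Col1a2 were lower and Col3a1 and Dcn higher past the threshold, summed to 1420 to 1550 CPM in sgControl and 1090 to 1130 CPM in sgMef2d. The 7 of 10 basal and myoepithelial markers listed summed to 613 to 630 CPM in sgControl and 1100 to 1150 CPM in sgMef2d, with Krt5, Krt14 and Trp63 higher and Acta2 lower past the threshold. Of the luminal markers, Krt18 was lower (adjusted p = 0.0207, edgeR) and Cldn4 higher (adjusted p = 0.0407, edgeR). Of the 6 osteoblast markers, Runx2 and Alpl were listed, while Sp7, Bglap, Ibsp and Dmp1 were not. Alpl was lower (log2 fold change -1.06, adjusted p = 0.00445, edgeR). Runx2, the more abundant, was not past the threshold (log2 fold change 0.17, adjusted p = 0.286, edgeR). Their summed level was 82.6 to 107 CPM in sgControl and 97 to 99.5 CPM in sgMef2d, so the groups overlapped. The part of these shifts in the receptor results was not tested.

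On the log2 scale, Tnfrsf11b had the largest difference among the 6 receptors listed. In order of replicate number, the controls gave 350, 224 and 238 counts, or 17.1, 15.9 and 17.4 CPM, while the sgMef2d cells gave 58 and 69 counts, or 3.41 and 4.65 CPM. Both sgMef2d libraries lay far below the 3 controls. On average sgControl stood at 16.8 ± 0.813 CPM (SD, n = 3) and sgMef2d at 4.03 ± 0.872 CPM (SD, n = 2). The fitted log2 difference was -2.07 ± 0.148 (SE), so that the level fell by 76.2%. In bulk RNA, fewer cells with the transcript and less of it per cell cannot be told apart, here and for the genes that follow. A total of 14 of the 12483 genes tested (0.112%) were at or under this value, a place that the choice of the gene had already fixed. Leaving out single sgControl libraries gave -2.11 to -2.05, whereas the value was -1.86 without sgMef2d replicate 1 and -2.30 without sgMef2d replicate 2. The gene (ENSMUSG00000063727.3) lies on chromosome 15 of GRCm38 from 54250619 to 54278484 on the minus strand. No annotated exon of another gene overlaps its 2818 exonic bases, and 0% of its 50-base words occur in transcripts of other genes.

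**Figure D1:**
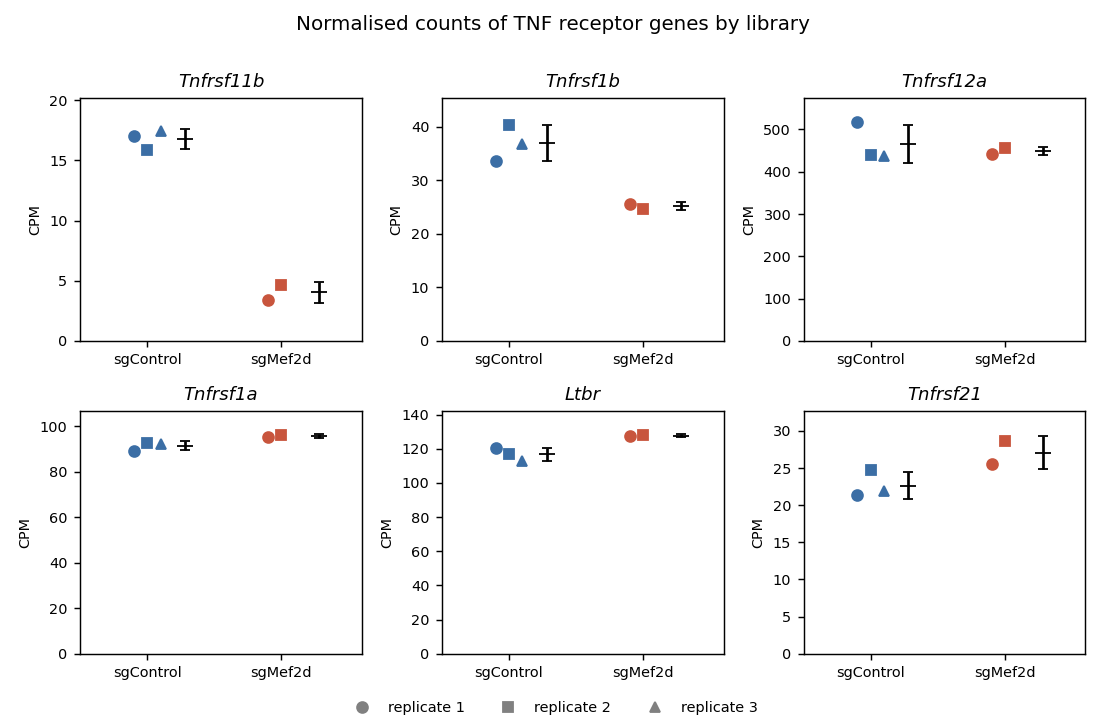
Normalised counts (CPM, linear axes from 0) of the 6 listed TNF receptor genes in each library, with sgControl in blue, sgMef2d in red and replicates by symbol. Black marks give the group mean and SD. Tnfrsf11b fell from 16.8 to 4.03 CPM on average and Tnfrsf1b from 37.0 to 25.2 CPM, and the ratio of the group means was nearer to 1 in the other 4 genes.

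Of the 5 other listed receptors, 1 was past the threshold (adjusted p below 0.05) and it was lower, beside 7.95% of all genes tested that were past it, 4.28% lower and 3.67% higher. The median log2 fold change of these 5 was 0.07, against 0.0031 over all genes tested. In 4 of the 5 the sgMef2d libraries did not overlap the sgControl libraries, 3 above and 1 below, while 41.1% of all genes tested showed no overlap, 20.6% above and 20.5% below. Without sgControl replicate 1, 2 of the 5 were past the threshold beside 3639 of all genes, and without either sgMef2d library 0 were, beside 238 and 234 of all genes. With so few genes these shares are read as counts and not as a property of the family.

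Tnfrsf1b encodes TNFR2, a receptor without a death domain that binds TRAF2 and responds most to membrane-bound TNF. In order of replicate number, the controls reached 33.6, 40.4 and 36.9 CPM, and the sgMef2d libraries 25.7 and 24.7 CPM. The lowest control library was above both sgMef2d libraries. On the log2 scale Tnfrsf1b fell by 0.55 ± 0.094 (SE, edgeR, adjusted p = 0.00450), and its fitted level fell by 31.6%. The call held when any sgControl library was left out, but with a single sgMef2d library, whose spread is then assumed to equal that of the controls, the adjusted p was 0.0597 without replicate 1 and 0.0834 without replicate 2. Its lowest and highest adjusted p among the alternatives were 4.32e-10 and 0.0834.

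Tnfrsf1a encodes TNFR1, the death domain receptor that soluble TNF acts through in most cells. It reached 89.1, 92.8 and 92.3 CPM in sgControl and 95.2 and 96.4 CPM in sgMef2d. The sgMef2d libraries were the highest of the 5, by a small margin. The log2 difference of 0.07 (95% interval -0.06 to 0.20, adjusted p = 0.540) did not pass the threshold. The ratio of Tnfrsf1a to Tnfrsf1b on the scale of CPM per kilobase of exons was 3.91, 3.38 and 3.69 in sgControl and 5.47 and 5.75 in sgMef2d. The ratio was thus higher in both sgMef2d libraries than in any control. Its group means were 3.66 ± 0.264 (SD, n = 3) and 5.61 ± 0.199 (SD, n = 2), with an exact two-sided permutation p of 0.1, the smallest that 10 arrangements of the libraries allow, so that a p below 0.05 could not be reached. Ltbr and Tnfrsf1a are close neighbours on chromosome 6, Ltbr from 125306571 to 125313885 on the minus strand and Tnfrsf1a from 125349362 to 125362484 on the plus strand.

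Ltbr encodes the lymphotoxin beta receptor, which signals through TRAF3 and the kinase NIK to the noncanonical NF-κB pathway. It reached 120, 117 and 113 CPM in sgControl and 127 and 128 CPM in sgMef2d. Both sgMef2d libraries lay above the controls, and the log2 fold change was 0.13 (95% interval 0.0016 to 0.26 before adjustment). Over all genes tested it did not pass the threshold (adjusted p = 0.209). Without sgControl replicate 1 it did, with a log2 fold change of 0.15 and an adjusted p of 0.00797, while the highest adjusted p among the alternatives was 0.657. The ratio of Ltbr to Tnfrsf1a per kilobase was 1.41 ± 0.0712 (SD, n = 3) in sgControl and 1.47 ± 0.00555 (SD, n = 2) in sgMef2d, with an exact permutation p of 0.4.

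Tnfrsf12a encodes Fn14, the small receptor of TWEAK that is induced by growth factors and wounding. It was the most abundant receptor of the set, at 517, 440 and 438 CPM in sgControl and 442 and 456 CPM in sgMef2d. The sgControl replicate 1 value was the highest and the other 4 libraries lay close together, with both sgMef2d values inside the range of the controls through that library alone. Its log2 fold change was -0.05 (95% interval -0.22 to 0.12, adjusted p = 0.739) and turned to 0.03 without sgControl replicate 1.

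Tnfrsf21 encodes death receptor 6, a death domain receptor known from neurons and lymphocytes. It reached 21.3, 24.7 and 21.8 CPM in sgControl and 25.5 and 28.6 CPM in sgMef2d. The groups did not overlap, although sgControl replicate 2 and sgMef2d replicate 1 were close. A log2 fold change of 0.26 (95% interval 0.05 to 0.47 before adjustment) did not pass the threshold over all genes (adjusted p = 0.133), nor did any alternative (adjusted p 0.0689 to 0.666). On chromosome 17 of GRCm38, Tnfrsf21 lies from 43016555 to 43089189 and Tnfrsf12a from 23675445 to 23677468.

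Levels of different receptors were compared per kilobase of annotated exons, which takes the union of all isoforms as the length. In sgControl, Tnfrsf12a stood at 241 ± 23.3 CPM per kb (SD, n = 3), Ltbr at 49.6 ± 1.53, Tnfrsf1a at 35.3 ± 0.770 and Tnfrsf1b at 9.68 ± 0.894. Tnfrsf11b at 5.96 ± 0.289 and Tnfrsf21 at 5.50 ± 0.441 CPM per kb had overlapping libraries and were not distinguished. Each of the other steps in this order was larger than the spread between the control libraries. In sgMef2d, Tnfrsf12a (232 ± 5.21 CPM per kb, SD, n = 2), Ltbr (54.3 ± 0.276) and Tnfrsf1a (37.0 ± 0.328) kept the first 3 places. Tnfrsf1b (6.60 ± 0.175) and Tnfrsf21 (6.58 ± 0.540) then overlapped, and Tnfrsf11b (1.43 ± 0.309) was the lowest of the 6. Over the 16 receptor genes of the family listed, Tnfrsf12a made up 60.8% of the summed per-length level in sgControl and 60.2% in sgMef2d, and Tnfrsf11b 1.51% and 0.370%. The sum itself was between 379 and 422 CPM per kb in sgControl and 380 and 391 CPM per kb in sgMef2d, so the groups overlapped.

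**Figure D2:**
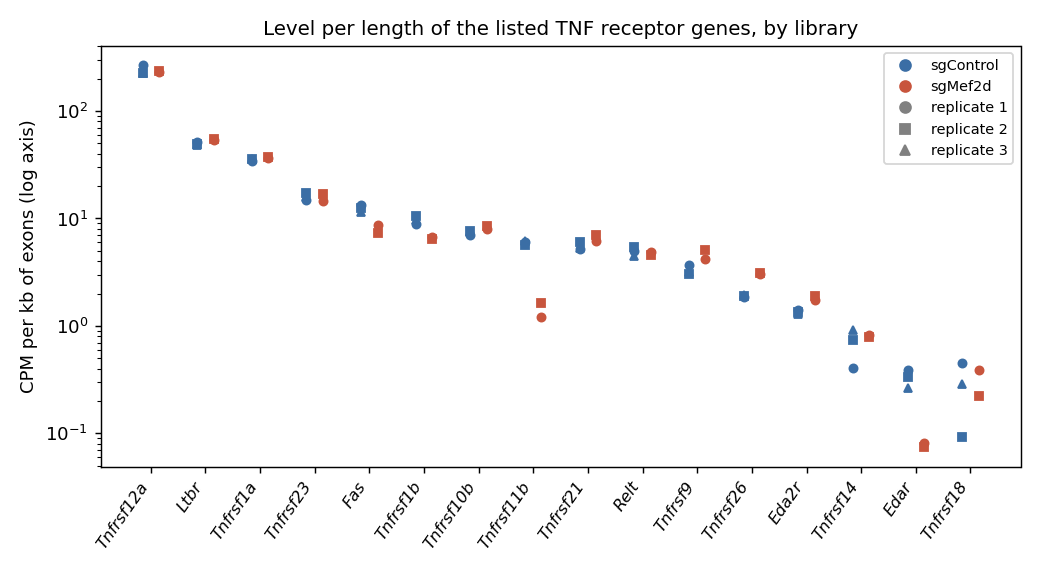
Level per kilobase of exons (log axis) of the 16 listed TNF receptor genes in each library, in the order of the sgControl mean, with sgControl in blue, sgMef2d in red and replicates by symbol. Tnfrsf12a stands highest in both groups, and Tnfrsf11b is at 5.64 to 6.19 CPM per kb in sgControl and at 1.21 and 1.65 CPM per kb in sgMef2d.

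A further 21 receptor genes of the family were looked up, of which 10 were listed and 9 tested. Of these 9, 2 were lower and 1 was higher past the threshold, beside 4.28% and 3.67% of all genes tested, and their median log2 fold change was 0.17. Leaving out sgControl replicate 1 raised the 3 calls to 5 (3639 over all genes), and leaving out sgMef2d replicate 1 or 2 lowered them to 1 or 0 (238 or 234 over all genes). Fas, the death receptor of Fas ligand, fell from 27.7, 25.8 and 23.6 CPM in sgControl to 17.8 and 15.2 CPM in sgMef2d. Every control library was above both sgMef2d libraries. On the log2 scale Fas fell by 0.64 ± 0.107 (SE, edgeR, adjusted p = 0.00414). Without sgMef2d replicate 2 the adjusted p was 0.0942, the highest over the alternatives, and the lowest was 1.57e-07. Edar, the ectodysplasin receptor of hair and gland placodes, fell from 29, 17 and 13 counts to 5 and 4 counts, a log2 difference of -2.08 ± 0.467 (SE, edgeR, adjusted p = 0.0201). These counts stand near the detection limit, and the call was lost without sgMef2d replicate 1 (adjusted p = 0.189) or replicate 2 (adjusted p = 0.193), in a range from 0.00193 to 0.193.

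Tnfrsf26, a mouse receptor related to the decoy TRAIL receptors, rose from 5.95, 6.10 and 6.23 CPM in sgControl to 9.83 and 10.03 CPM in sgMef2d. The replicates of each group were nearly level and the groups stood well apart. The rise on the log2 scale was 0.71 ± 0.128 (SE, edgeR, adjusted p = 0.00623), and the adjusted p was 0.0789 without sgMef2d replicate 1 and 0.0898 without replicate 2, in a range from 4.05e-04 to 0.0898. Tnfrsf23, a decoy TRAIL receptor, lies beside it on chromosome 7, at 143665809 to 143685872 against 143607659 to 143628722 for Tnfrsf26. Tnfrsf23 reached 59.3, 68.1 and 63.0 CPM in sgControl and 58.1 and 66.5 CPM in sgMef2d. Its groups overlapped, and the log2 fold change of -0.03 (adjusted p = 0.893) turned positive without sgControl replicate 2 (0.03) or sgMef2d replicate 1 (0.07). Of the 50-base words in Tnfrsf23 transcripts, 18.0% also occur in Tnfrsf22, which was not listed. The sources used here do not say how reads that fit both genes were counted. The Tnfrsf23 level and the ratio that follows are thus uncertain. The ratio of Tnfrsf26 to Tnfrsf23 per kilobase was 0.119 ± 0.00716 (SD, n = 3) in sgControl and 0.197 ± 0.0160 (SD, n = 2) in sgMef2d, with an exact permutation p of 0.1, the smallest possible.

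The remaining receptors did not pass the threshold. Tnfrsf10b, the TRAIL death receptor, reached 38.3, 41.3 and 41.0 CPM in sgControl and 43.3 and 46.9 CPM in sgMef2d (log2 fold change 0.17, adjusted p = 0.206). Tnfrsf9, the costimulatory receptor 4-1BB, reached 9.995, 8.30 and 8.72 CPM and then 11.5 and 13.9 CPM (log2 fold change 0.48, adjusted p = 0.0518). Leaving out sgControl replicate 1 put Tnfrsf9 past the threshold (adjusted p = 8.78e-04), as did the replicate number as a block (adjusted p = 0.0226), in a range from 8.78e-04 to 0.479. Eda2r, the receptor of the A2 form of ectodysplasin and a known p53 target, reached 8.24, 7.87 and 7.55 CPM and then 10.2 and 11.1 CPM (log2 fold change 0.42, adjusted p = 0.0607). Eda2r passed without sgControl replicate 1 (adjusted p = 0.0141, range 0.0141 to 0.430). Of the 9 tested, the sgMef2d libraries were above all controls in 4 and below in 2, beside 20.6% and 20.5% of all genes tested, and Tnfrsf10b, Tnfrsf9 and Eda2r were among the 4. Relt (log2 fold change -0.08, adjusted p = 0.726) had 14.7 to 17.9 CPM in sgControl and 15.1 and 15.9 CPM in sgMef2d. Tnfrsf14 gave only 12 to 20 counts in each library, and its log2 fold change of 0.31 turned to -0.03 without sgControl replicate 1. Tnfrsf18 gave 2 to 14 counts in each and did not pass the expression filter. Tnfrsf11a, which encodes RANK, was among the 11 receptors not listed.

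**Figure D3:**
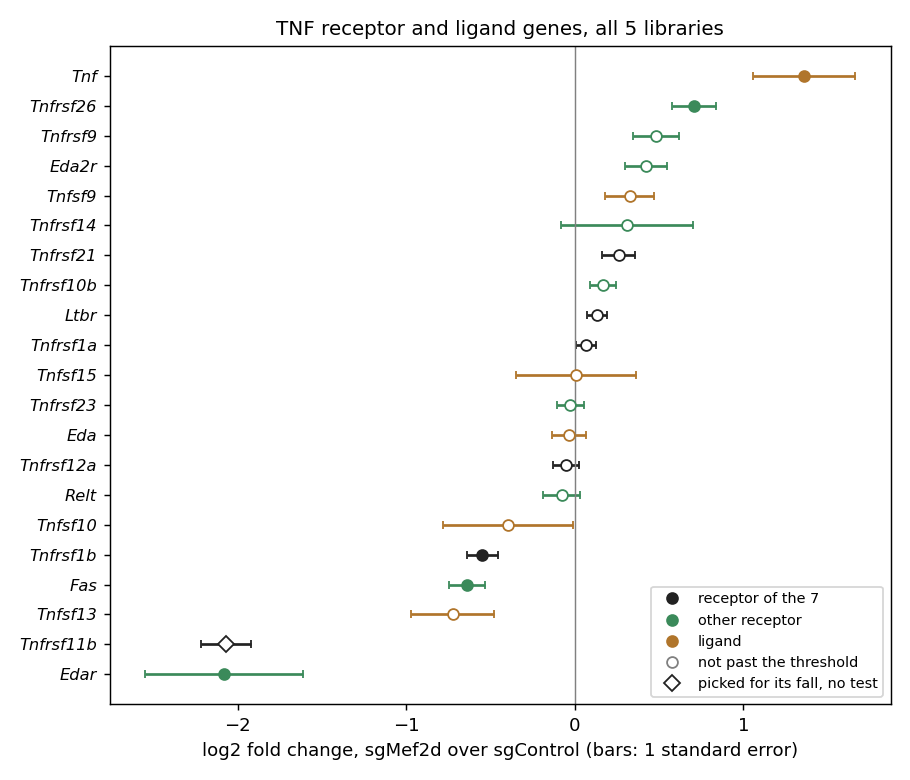
Log2 fold change of sgMef2d over sgControl with 1 standard error for the 15 receptor and 6 ligand genes with a fitted value, all 5 libraries. Filled points were past an adjusted p of 0.05 in edgeR's quasi-likelihood test and open points were not. Tnfrsf11b, drawn as a diamond, has no test because it was picked for its fall. The filled points are Tnf and Tnfrsf26 above 0 and Tnfrsf1b, Fas and Edar below 0.

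Of 18 ligand genes of the family, 6 were listed and tested. Tnfsf11, which encodes RANKL, and Tnfsf12, which encodes the Fn14 ligand TWEAK, were not listed. Tnfsf10, which encodes TRAIL, the other known ligand of osteoprotegerin, had only 10 to 19 counts per library (log2 fold change -0.40, adjusted p = 0.590). Of the 6, 1 was higher past the threshold and 0 were lower, beside 3.67% and 4.28% of all genes tested. This was Tnf, with 26, 12 and 12 counts in sgControl and 53 and 32 counts in sgMef2d. Both sgMef2d libraries were above the controls, at 1.27, 0.851 and 0.879 CPM against 3.12 and 2.15 CPM. The rise on the log2 scale was 1.36 ± 0.303 (SE, edgeR, adjusted p = 0.0194). The call was lost without sgControl replicate 2 (adjusted p = 0.0549), without sgMef2d replicate 1 (0.285) and without sgMef2d replicate 2 (0.0548), in a range from 2.34e-04 to 0.285.

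The other 4 ligands gave no call. Tnfsf9, the ligand of 4-1BB, reached 8.58, 6.52 and 7.77 CPM in sgControl and 9.12 and 10.2 CPM in sgMef2d (log2 fold change 0.32, adjusted p = 0.209), and was past the threshold when sgControl replicate 1 was left out (adjusted p = 0.0300, range 0.0300 to 0.695). Tnfsf13, which encodes APRIL, reached 2.68, 2.62 and 2.64 CPM and then 1.41 and 1.82 CPM (log2 fold change -0.72, adjusted p = 0.102). Other genes, mainly Tnfsfm13, share 57.3% of its 50-base words, and 60.0% of its exonic bases are overlapped, so its value is uncertain. Eda, the ligand of Edar and Eda2r, was level at 15.2 to 16.8 CPM in sgControl and 15.3 and 16.2 CPM in sgMef2d (log2 fold change -0.03, adjusted p = 0.889), and its sign turned without sgControl replicate 1 or sgMef2d replicate 2. Tnfsf15 had 17 to 31 counts per library, with overlapping groups and a log2 fold change of 0.0065 that changed sign under several settings.

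Proteins that relay or cut these receptors were taken from 3 lists of 44 genes in all, of which 42 were listed and tested. Past the threshold, 4 were lower and 0 were higher in edgeR's quasi-likelihood test, and the median log2 fold change was -0.04. Over all genes tested, 4.28% were lower and 3.67% higher. In 14 of the 42 the sgMef2d libraries were below all controls and in 5 above, beside 20.5% and 20.6% of all genes tested. Among 24 genes of the TNFR1 complexes, 3 were lower. Tnfaip3, which encodes the ubiquitin-editing enzyme A20 that shuts off NF-κB signalling, fell from 244, 255 and 253 CPM in sgControl to 187 and 169 CPM in sgMef2d. On the log2 scale Tnfaip3 fell by 0.50 ± 0.063 (SE, edgeR, adjusted p = 7.99e-04), and its adjusted p was below 0.05 in all 12 alternatives. Birc3 and Birc2 encode the ubiquitin ligases cIAP2 and cIAP1, which sit beside TRAF2 on TNFR1 and TNFR2. Birc3 fell from 30.2, 30.8 and 27.8 CPM to 20.6 and 24.6 CPM (log2 fold change -0.40, adjusted p = 0.0315). Birc2 fell from 41.4, 42.3 and 40.6 CPM to 34.6 and 31.9 CPM (log2 fold change -0.32, adjusted p = 0.0262).

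Among 11 genes of the TRAF and noncanonical list, 1 was lower. Traf1, an adaptor that pairs with TRAF2 at TNFR2 and is itself an NF-κB target, fell from 34.2, 30.9 and 26.5 CPM to 23.5 and 21.3 CPM (log2 fold change -0.45, adjusted p = 0.0307). The controls spread widely, but the lowest of them was above both sgMef2d libraries. Birc2, Birc3 and Traf1 each lost their call without sgControl replicate 2 (adjusted p = 0.0964, 0.106 and 0.0790), without sgMef2d replicate 1 (0.117, 0.348 and 0.135) and without sgMef2d replicate 2 (0.325, 0.0697 and 0.313). Birc2 also lost it under DESeq2 (0.0516). The lowest and highest adjusted p among all alternatives were 3.66e-04 and 0.325 for Birc2, 4.46e-04 and 0.348 for Birc3, and 2.56e-05 and 0.313 for Traf1. Without sgControl replicate 1, 13 of the 42 genes were past the threshold, 10 lower and 3 higher, beside 3639 of the 12377 genes tested in that setting, 1835 lower and 1804 higher. Cflar, Cyld, Ikbkg, Otulin, Tab3, Tank, Traf3, Traf4 and Rhbdf2 were called in that setting and not with all 5 libraries. The TNFR1 adaptors Tradd, Ripk1, Traf2 and Fadd and the initiator caspase gene Casp8 had absolute log2 fold changes below 0.06 and were not past the threshold.

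Of 7 genes linked to the shedding of these receptors, 0 passed the threshold in edgeR's quasi-likelihood test, beside 7.95% of all genes tested. An unadjusted p below 0.05 was found for 1 of the 7, beside 23.2% of all genes tested. That gene was Rhbdf2, which encodes a rhomboid-like partner of the sheddase ADAM17, with 54.7, 55.5 and 57.7 CPM in sgControl and 65.6 and 62.5 CPM in sgMef2d. Its log2 fold change was 0.20 (adjusted p = 0.0968), and without sgControl replicate 1 the adjusted p was 0.0152, in a range from 0.0152 to 0.522. DESeq2 and limma-voom, fitted to the same 5 libraries, called 0 of the 7 as well.

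**Figure D4:**
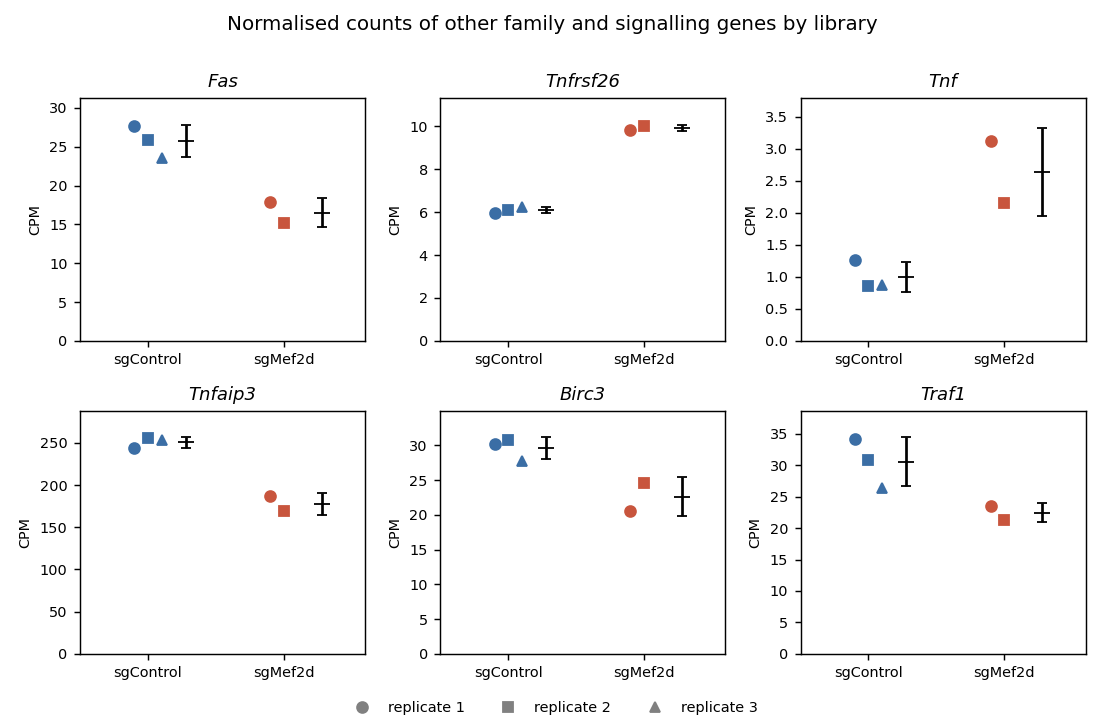
Normalised counts (CPM, linear axes from 0) by library of Fas, Tnfrsf26, Tnf, Tnfaip3, Birc3 and Traf1, with sgControl in blue, sgMef2d in red, replicates by symbol and black marks for mean and SD. The sgMef2d libraries are below every control for Fas, Tnfaip3, Birc3 and Traf1 and above every control for Tnfrsf26 and Tnf.

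Promoter sequence was examined for the receptors and for the signalling genes past the threshold. RefSeq windows of build GRCm38.p6 reach from 250 bases before to 50 bases after each start, and 6 of the 7 receptors had one, all but Tnfrsf11b. Sites of NF-κB and of MEF2 were searched by their consensus on both strands. In all 32851 windows, 4.51% held an NF-κB site and 3.19% a MEF2 site. Of the 6 receptors with a window, 0 held either. Of 22 genes looked up, counting the further receptors and the called genes, 19 had a window, in which NF-κB matches were found for Tnfaip3 and Tnfrsf9 and MEF2 matches for 0. Some genes had more than a single window, and a further window of Tnfaip3 and of Tnfrsf9 held 0 NF-κB matches. These are counts of genes, while the shares above are of windows. The windows of the 6 receptors of the set contained 11 to 23 CpG dinucleotides, those of the further receptors 2 (Tnfrsf14) to 30 (Relt), and the median over all windows was 7. Of the genes that fell, Tnfrsf1b and Fas are shown as the tested receptors with the most counts, beside Tnfaip3 with its 2 NF-κB matches in capitals, starting 125 and 12 bases before the start site. Each sequence is the 250 bases before the start, 5′ to 3′ on the strand of the gene, at chr4:145246871-145247120 (minus), chr19:34290409-34290658 (plus) and chr10:19015411-19015660 (minus). Such matches are descriptions of letters and not measured binding sites.
Tnfrsf1b: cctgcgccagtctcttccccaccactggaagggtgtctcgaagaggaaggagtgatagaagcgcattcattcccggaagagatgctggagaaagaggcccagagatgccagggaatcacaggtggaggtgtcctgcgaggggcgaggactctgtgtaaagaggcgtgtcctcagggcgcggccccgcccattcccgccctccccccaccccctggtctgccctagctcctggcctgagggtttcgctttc
Fas: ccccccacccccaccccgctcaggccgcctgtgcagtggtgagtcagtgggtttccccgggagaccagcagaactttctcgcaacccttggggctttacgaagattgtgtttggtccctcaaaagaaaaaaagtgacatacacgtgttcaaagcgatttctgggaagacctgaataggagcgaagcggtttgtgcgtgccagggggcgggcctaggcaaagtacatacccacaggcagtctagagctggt
Tnfaip3: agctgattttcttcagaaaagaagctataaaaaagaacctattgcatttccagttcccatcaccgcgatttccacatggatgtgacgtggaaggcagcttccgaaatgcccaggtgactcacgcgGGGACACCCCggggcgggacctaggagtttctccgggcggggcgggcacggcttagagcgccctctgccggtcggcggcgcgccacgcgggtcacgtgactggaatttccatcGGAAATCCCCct

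The genes whose pattern over the 5 libraries was nearest to that of Tnfrsf11b were found by the root-mean-square difference of log2 CPM, each gene centred on its own mean. The nearest was Nhs, with a difference of 0.175 on the log2 scale and a mean of 2.14 ± 0.312 CPM (SD, n = 3) in sgControl. Both sgMef2d libraries held 0.471 CPM of Nhs, which is only a few counts, so their closeness says little. Kctd12b followed with a difference of 0.210 and means of 15.1 ± 1.75 CPM (SD, n = 3) in sgControl and 3.85 ± 0.300 CPM (SD, n = 2) in sgMef2d. Ctla2b followed with 0.225 and means of 3.18 ± 0.709 and 0.770 ± 0.340 CPM, but 69.0% of its 50-base words are shared with other genes, so its value is uncertain. Edar was the receptor of the family nearest to Tnfrsf11b, in place 6 with a difference of 0.303. These are descriptions over 5 libraries, and the order follows the same contrast by which Tnfrsf11b had been picked.

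**Figure D5:**
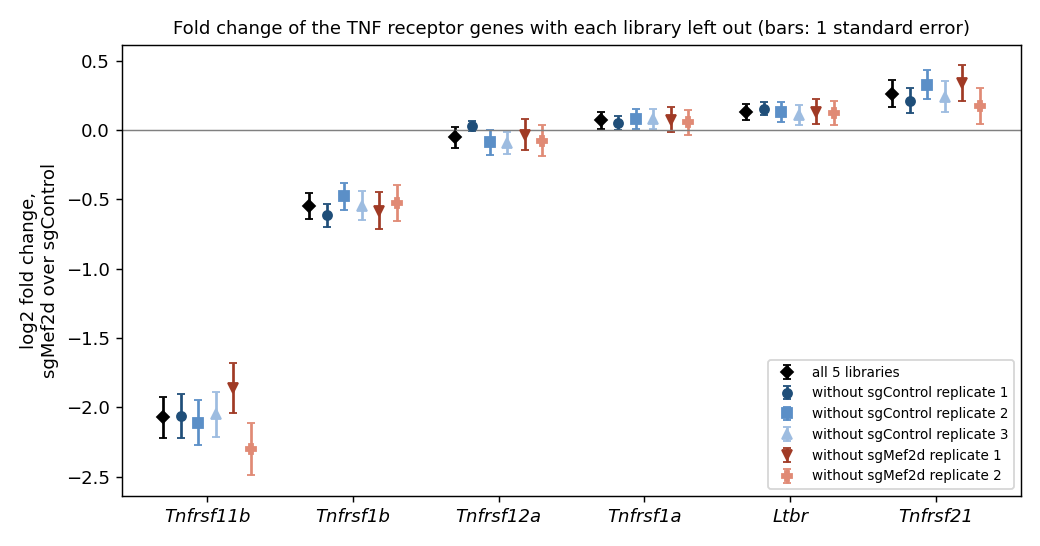
Log2 fold change of sgMef2d over sgControl with 1 standard error for the 6 listed receptors, from all 5 libraries (black diamonds) and with each library left out in turn. Tnfrsf11b stays between -2.30 and -1.86 and Tnfrsf1b between -0.62 and -0.48, while Tnfrsf12a crosses 0 without sgControl replicate 1.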

How the data were processed

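RNA of EpH4 cells was sequenced from poly(A)-selected libraries that mark strand by dUTP. Per the methods, the authors checked reads with FASTQC and RSeQC and aligned them with STAR2 to GRCm38 with GENCODE. The submitters' processing notes name CASAVA, STAR and Subread. The authors deposited raw counts per gene, without normalization. The strand setting of the counting is not given in the sources used here. The lowest maximum of any listed gene was 11 counts, so low-count genes had been removed. All 12934 identifiers matched GENCODE M21 (12811 with the same version), 0 columns of per-sample values were unused, and 0 entries had no symbol.

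TMM factors (0.996 to 1.00) were computed with edgeR 4.0.16 under R 4.3.3, followed by the bias-adjusted quasi-likelihood test over the 12483 genes kept by its expression filter, with a Benjamini-Hochberg adjusted p below 0.05 as the threshold and no replicate block. CPM used the TMM-scaled library totals, and log2 CPM a prior count of 2. Floors cover counting error only, since PCR copies were not identified. Per-length levels used the union of GENCODE M21 exons. Alternatives were RLE factors, no factors, no filter, the legacy form, DESeq2 1.42.0, limma-voom (limma 3.58.1), the replicate number as a block, and each library left out. Before use the fit was run on simulated counts. These held no library that stood apart as sgControl replicate 1 did, so the run was no check of that feature. The 7 receptors and all gene lists were chosen with earlier results of these data known. Genes named were the receptors and ligands listed, at most 6 called genes of each signalling list or else the one with the smallest p, the 3 nearest to Tnfrsf11b, Mef2d and cell type markers. Outside this rule, the signalling genes called only without sgControl replicate 1 were named, as were Tradd, Ripk1, Traf2, Fadd and Casp8. Protein sequences were not used here.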

Additional observations from a re-analysis of the deposited data

How the results depend on the processing

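With single libraries left out in turn, all genes past the threshold numbered 234 to 3639, receptors of the set other than Tnfrsf11b 0 to 2, other receptors 0 to 5, ligands 0 to 2 and signalling genes 1 to 13, and the log2 fold change of Tnfrsf11b lay between -2.30 and -1.86. The low ends of the counts came without an sgMef2d library, or for the ligands and signalling genes also without sgControl replicate 2, and their high ends without sgControl replicate 1. Other normalizations, no filter, the legacy form, DESeq2 and limma-voom left these counts within 1.5 times and Tnfrsf11b between -2.08 and -2.07. Signs turned for 5 genes, none past the threshold in any fit, and the cause was not tested. With libraries left out, Tnfrsf12a ranged from -0.0929 to 0.0315, Tnfrsf14 from -0.0339 to 0.566, Tnfrsf23 from -0.13 to 0.0654, Tnfsf15 from -0.394 to 0.275 and Eda from -0.0819 to 0.00626. Tnfsf15 also turned with no factors (-8.24e-04), the legacy form (-0.0168) and DESeq2 (-0.0505). Of 348 values of 29 single genes, 307 kept direction and side of the threshold, 23 lost and 7 gained the call. With the replicate number as a block, 1253 genes were past the threshold, with 1 receptor of the set, 4 other receptors, 1 ligand and 4 signalling genes, and Tnfrsf11b had a log2 fold change of -2.05. Deviations of same-numbered libraries from their group means had correlations over genes of 0.0113 and -9.16e-04. With 2 sgMef2d libraries these deviations mirror each other, so the values cannot tell whether same-numbered libraries were paired. Among the 29 genes refitted with the block, no call but that of Tnfrsf9 changed. Nhs, Tnf, Edar, Tnfrsf14, Tnfrsf18, Tnfsf10, Tnfsf13 and Tnfsf15 had at most 55 counts in any library, so their values rest on little depth.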
